A study of Homo sapiens with 8 samples.

Results

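The G2/M and mitosis genes described here are 32 genes that act in the last part of the cell cycle, from the entry into mitosis to the separation of the daughter cells. They were chosen by name as a list of known mitotic functions, and each was found in the count table by its gene symbol. The table holds 57992 genes, of which 18314 had enough reads to be tested, and all 32 members were among these. KG1A is a human acute myeloid leukaemia line of immature cells, and U937 is a human line of monocytic character that the labels also class as this leukaemia. Cells received either dG at 10 mM (the labels name the compound only so) or PBS as vehicle, and poly(A) RNA was sequenced from 2 libraries per line and treatment, 8 in all. All groups grew in the same RPMI medium with dialyzed serum and antibiotics. Treatment time is not given in the sources used here. Nor do the labels say that replicates grew as separate cultures: a p-value here weighs an effect only against the spread between these libraries, which may be technical.

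A dividing cell first assembles the kinase CDK1 with B-type cyclins, and CDC25 phosphatases switch the complex on. Aurora and polo-like kinases, kinesin motors and microtubule-binding proteins then build the spindle, the checkpoint holds the cell until every chromosome is attached, and the anaphase-promoting complex ends mitosis by marking cyclin B and securin for destruction. The mRNAs of these proteins are made in a wave that peaks in G2 and mitosis. In their promoters the MuvB complex binds an element called CHR (cell cycle genes homology region), and NF-Y binds CCAAT boxes nearby. MuvB acts with the RB-related pocket proteins as a repressor in resting cells, and with B-MYB and FOXM1 as an activator in G2. The list therefore marks cycling cells in most tissues, leukaemic blasts included.

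The promoter elements are shown first because they are a feature that the choice of members did not use. RefSeq promoter windows on build GRCh38.p14, which run from 250 bases before the gene start to 50 after, were matched by symbol for 26 of the 32 members (35 windows, since 5 genes have several). AURKA, TTK, TPX2, BIRC5, UBE2C and FOXM1 had no entry. The letters searched on both strands were TTTGAA for the CHR, TTCGAA for its variant, and CCAAT. Either CHR form was in 62.9% of the members' windows and in 16.4% of all 35116 windows. CCAAT was in 80% of the members' windows and in 34.6% of all. A CHR form with a CCAAT upstream of it was in 57.1% against 3.4%, and TTTGAA in the direction of the gene within 60 bases before the start was in 28.6% against 1.53%. KIF2C and CENPE had neither motif in the window. A match is only a match of letters and does not show binding.

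**Figure D1:**
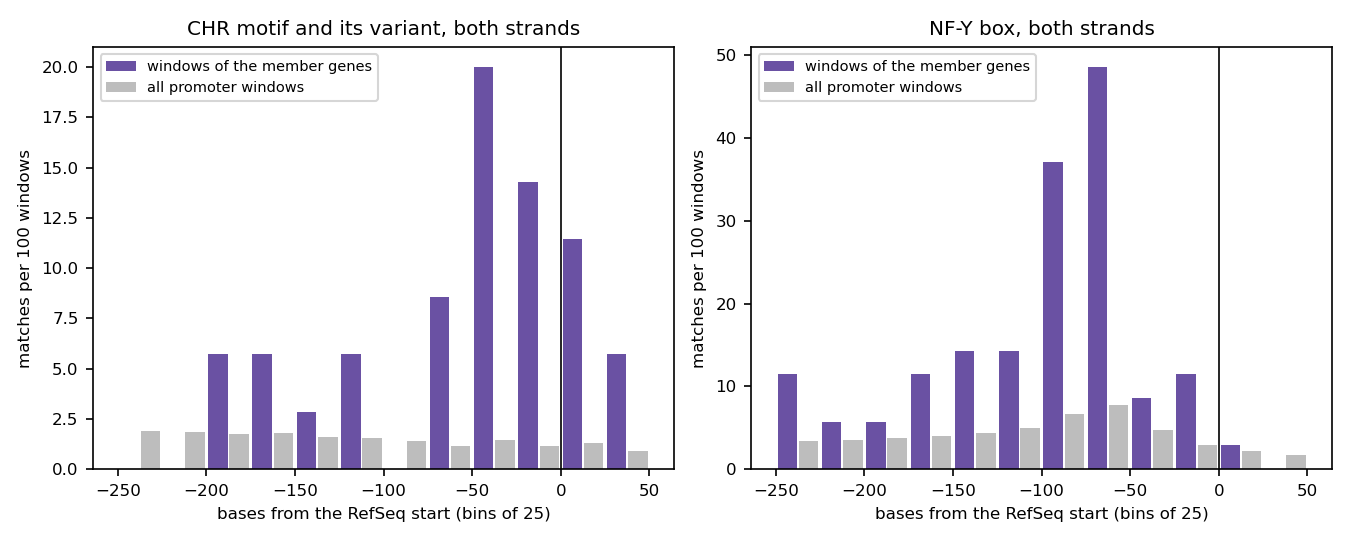
Matches per 100 promoter windows (vertical axis) by distance in bases from the RefSeq start, in bins of 25 (horizontal axis). The left panel counts the CHR motif TTTGAA and the right panel the CCAAT box bound by NF-Y, both strands. The title of the left panel also names the variant TTCGAA, which is not counted in the bars. Purple bars are the 35 windows of member genes and grey bars all 35116 windows; the members' CHR matches were most frequent in the bin from -50 to -25 and their CCAAT matches in the bin from -75 to -50.

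The sites below are 30-base stretches around a motif, 5′ to 3′ on the strand of the gene, with the motif in capitals. HMMR, CDC25B, PTTG1 and CDC25C had the largest absolute differences between the lines' responses among members with a motif, and HMMR and CDC25B went furthest apart. The site of HMMR holds 2 TTTGAA runs in a row, that of CDC25B the TTCGAA variant, and that of PTTG1 no CHR form but the letters CCAATTGG, in which a CCAAT on each strand overlaps. For genes with several windows the site came from a window chosen for its motif. Other windows of CDC25B and CDC25C held neither motif. In the windows used for HMMR and CDC25B, the 120 bases before the start lay wholly in annotated exons.
HMMR (chr5:163460595-163460624, + strand): gtggggagaTTTGAATTTGAAaccggtagg
CDC25B (chr20:3796260-3796289, + strand): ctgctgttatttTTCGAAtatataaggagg
PTTG1 (chr5:160421793-160421822, + strand): gggcggaagagCCAATTGGgccgcgagttg
CDC25C (chr5:138331817-138331846, - strand): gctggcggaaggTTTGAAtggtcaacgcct

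The next sites were chosen after the values were seen. Among them are members with the same element that went different ways. PRC1, KIF23 and CENPA rose in both lines, BUB1B and KIF11 rose in KG1A and did not rise in U937, PLK1 fell in U937, and CDC20 fell in both lines.
PRC1 (chr15:90994538-90994567, - strand): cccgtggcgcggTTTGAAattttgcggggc
KIF23 (chr15:69414282-69414311, + strand): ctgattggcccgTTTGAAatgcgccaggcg
CENPA (chr2:26786026-26786055, + strand): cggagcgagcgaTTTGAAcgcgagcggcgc
BUB1B (chr15:40161034-40161063, + strand): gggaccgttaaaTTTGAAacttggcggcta
KIF11 (chr10:92593090-92593119, + strand): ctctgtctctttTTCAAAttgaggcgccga
PLK1 (chr16:23678848-23678877, + strand): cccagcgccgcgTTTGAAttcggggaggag
CDC20 (chr1:43358904-43358933, + strand): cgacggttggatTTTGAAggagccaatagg
TTCAAA in KIF11 is TTTGAA read on the other strand. In PRC1, KIF23 and PLK1 the 120 bases before the start lay wholly in annotated exons. The motif starts at position -20 in PRC1, -55 in KIF23, -18 in CENPA, -23 in BUB1B, -28 in KIF11, -29 in PLK1 and -65 in CDC20, where -1 is the base before the start. Since these sites were chosen with the values known, the part of the element in the response was not tested.

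In MKI67 the 120 bases before the start hold no annotated exon, so they are printed whole to show how the elements are arranged. It holds a CCAAT on the other strand at position -98, the CHR letters at -47 and -29, and another opposite-strand CCAAT at -24 that shares bases with the last CHR.
MKI67 (chr10:128126424-128126543, - strand): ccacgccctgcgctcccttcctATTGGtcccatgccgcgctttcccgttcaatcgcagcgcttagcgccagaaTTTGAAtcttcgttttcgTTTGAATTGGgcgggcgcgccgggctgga

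The libraries held 21053724 to 31135338 counts each, and every member averaged at least 338 counts per library. Replicates were close: the median coefficient of variation of a member within a group was 1.71% to 2.65%, and the highest was 14.015%, in KG1A PBS. CD34, the defining antigen of KG1A, lay at 931 to 1195 CPM (reads per gene after TMM correction for library size) in KG1A and at most at 0.78 CPM in U937. The 5 listed KG1A markers summed to 1519 and 1498 CPM in KG1A PBS and to 1849 and 1851 CPM in KG1A dG, where 3 of the 5 rose and 0 fell. Their sum was 109 to 112 CPM in U937 PBS and 190.0 to 190.5 CPM in U937 dG. In U937 3 of the 5 rose in dG and 1 fell. The U937 markers summed to 974.9 and 976.1 CPM in U937 PBS and to 1918 and 1854 CPM in U937 dG. Of the 6 that were tested, 4 rose in U937 dG and 1 fell. In KG1A the U937 markers summed to 0.26 to 1.74 CPM, with the higher values in KG1A dG. MPO, also a U937 marker, stayed at or under 0.20 CPM in U937 too. Of 11 markers of other cell types, 6 to 9 were at 0 in each library, and KG1A expressed the T cell receptor chain gene CD3D at 94.0 to 103 CPM. Mitochondrially encoded genes took a share of the counts of 9.12% to 9.19% in KG1A PBS and 8.01% to 8.30% in KG1A dG. In U937 this share was 9.76% to 9.83% in PBS and 7.93% to 8.18% in dG, and its part in the results below was not tested.

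The first question was whether dG moved the mitotic programme within each line. Summed over the 32 genes, KG1A PBS libraries held 7318 and 7123 CPM and KG1A dG libraries 9727 and 9920 CPM. The U937 sums were 8764 and 8592 CPM in PBS and 10965 and 10767 CPM in dG. In both lines each dG library lay above both PBS libraries. In KG1A 28 members rose, CDC20 fell, and PLK1, MAD2L1 and BIRC5 were not called, where 49.1% of all tested genes were called, 29.6% of them upwards and 19.6% downwards as shares of the genes tested. The median log2 fold change of the members was 0.42, against 0.04 over all genes, and the range ran from -0.25 (CDC20) to 0.98 (CDC25C). In U937 25 members rose, 5 fell (PLK1, MAD2L1, KIF11, HMMR and CDC20), and BUB1B and FOXM1 were not called, where 64% of all genes were called, 32.4% upwards and 31.5% downwards. The U937 median was 0.34, against 0.00 over all genes, and the range ran from -0.44 (HMMR) to 1.37 (CDC25B). Of the 32 members, 30 had no overlap between the KG1A groups (29 higher and 1 lower in dG), beside 70.2% of all genes (40.6% higher, 29.6% lower). In U937 31 had none (26 higher and 5 lower), beside 78.9% of all genes (39.2% higher, 39.8% lower). In bulk RNA, a larger share of cells in G2 or mitosis and more RNA per such cell cannot be told apart.

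Most changes were modest. CDC25B in U937 was the 1 member whose fold change exceeded 2 in either line, and changes of at least 2-fold were called for 6.79% of all genes in KG1A and 17.4% in U937. The same 24 members rose in both lines, which is 75% of the list and 15.4% of all genes tested. CDC20 was the 1 member that fell in both. KIF11 and HMMR rose in KG1A and fell in U937. Every log2 fold change given with ± carries its standard error from the fit over all 8 libraries.

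**Figure D2:**
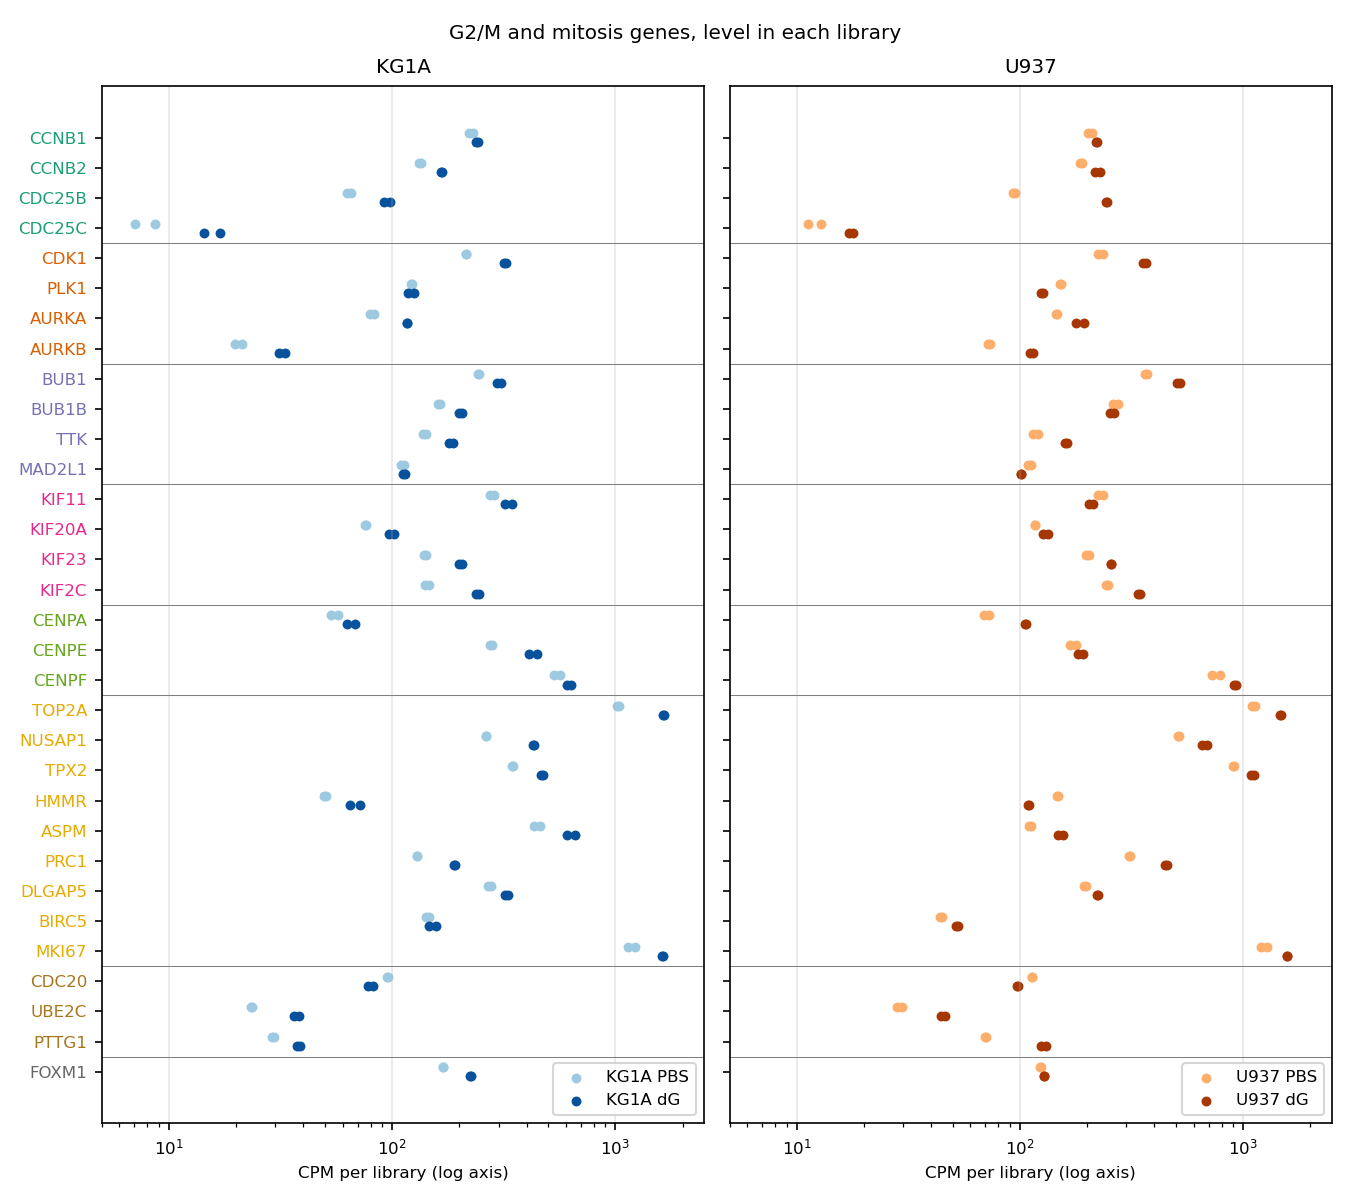
Level of each of the 32 genes in every library, in CPM on a log axis, KG1A on the left and U937 on the right; light points are PBS and dark points dG, and gene names are coloured by role. TOP2A and MKI67 lie furthest right in KG1A, from 1017 CPM upwards, CDC25C furthest left in both lines, and the dark points of CDC20 lie left of the light ones in both lines.

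Of the cyclin genes CCNB1 moved little and CCNB2 rose further, while the phosphatases that switch on their kinase moved more than both. CDC25B, the phosphatase that starts CDK1 activation at the centrosomes (ENSG00000101224, chr20:3786772-3806121 in GRCh38), lay at 65.6 and 62.9 CPM in KG1A PBS and at 98.0 and 92.3 CPM in KG1A dG. In U937 it went from 93.4 and 95.3 CPM to 243.5 and 245.3 CPM. The dG libraries were the higher ones in both lines, without overlap, by log2 fold changes of 0.57 ± 0.04 (adjusted p = 1.18e-13) and 1.37 ± 0.04 (adjusted p = 7.55e-27). CDC25C, its partner at mitotic entry, was the least abundant member, at 7.07 and 8.62 CPM in KG1A PBS and 14.4 and 16.99 CPM in KG1A dG. U937 held 12.9 and 11.3 CPM of it in PBS and 17.2 and 17.9 CPM in dG. It rose in both, by 0.98 ± 0.11 and 0.53 ± 0.10, but FAM53C lies on the other strand of the same locus with more reads, so its values are uncertain. CCNB2, a B-type cyclin gene, rose by 0.32 ± 0.04 and 0.25 ± 0.04. CCNB1, which encodes the main mitotic cyclin, lay at 220 and 231 CPM in KG1A PBS and 243 and 238 CPM in KG1A dG. Its changes were 0.09 ± 0.03 in KG1A (adjusted p = 0.0296) and 0.09 ± 0.04 in U937 (adjusted p = 0.0204), and the KG1A call ended in 13 of 17 alternative analyses, for example with no filter on low counts (0.02, adjusted p = 0.807). The U937 call of CCNB1 ended with scaling by total counts (0.02, adjusted p = 0.644) and without U937 PBS replicate 1 (0.06, adjusted p = 0.223).

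CDK1 and the aurora kinases rose in both lines, and PLK1 did not. CDK1, the kinase that drives entry into mitosis, lay at 213 and 213 CPM in KG1A PBS and at 318 and 322 CPM in KG1A dG. In U937 it went from 224 and 234 CPM to 367 and 357 CPM, and the changes were 0.59 ± 0.03 and 0.66 ± 0.03. AURKA, the kinase of the spindle poles, rose by 0.52 ± 0.04 and 0.35 ± 0.04. AURKB, the enzyme of the chromosomal passenger complex, rose by 0.65 ± 0.06 and 0.63 ± 0.05. PLK1, the polo-like kinase that matures centrosomes and feeds CDK1 activation (ENSG00000166851, chr16:23677656-23690367), lay at 122 and 121 CPM in KG1A PBS and at 125 and 117 CPM in KG1A dG, so its groups overlapped. In U937 it went down from 151 and 152 CPM to 126 and 124 CPM. The U937 fall was -0.27 ± 0.04 (adjusted p = 1.23e-07), against -0.01 ± 0.04 in KG1A (adjusted p = 0.903).

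The 4 spindle checkpoint genes split. BUB1, a kinase that recruits the checkpoint to kinetochores, rose by 0.31 ± 0.03 in KG1A and 0.48 ± 0.03 in U937. TTK, the MPS1 kinase that starts checkpoint signalling, rose by 0.40 ± 0.04 and 0.46 ± 0.04. BUB1B, which encodes BUBR1 of the inhibitory complex, lay at 163 and 160 CPM in KG1A PBS and at 200.2 and 206 CPM in KG1A dG. In U937 it lay at 275 and 261 CPM in PBS and at 263 and 253 CPM in dG, where the groups overlapped. Its KG1A rise was 0.33 ± 0.04, and its U937 change was -0.05 ± 0.04 (adjusted p = 0.188, 95% interval -0.12 to 0.02). A U937 fall of BUB1B was called when libraries were scaled by total counts (-0.13, adjusted p = 0.00135) and without U937 PBS replicate 2 (-0.10, adjusted p = 0.0249). MAD2L1, the MAD2 subunit of that complex, was at 109 to 115 CPM in all 4 KG1A libraries. In U937 it lay at 108 and 112 CPM in PBS and at 101 and 101 CPM in dG, a fall by 0.12 ± 0.04 on the log2 scale (adjusted p = 0.00937) that was lost in 8 of 17 alternatives, among them those without U937 dG replicate 1 (-0.07, adjusted p = 0.305) or 2 (-0.05, adjusted p = 0.416).

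All 4 kinesin genes rose in KG1A, and 3 of them in U937. KIF2C, which takes microtubule ends apart at centromeres, rose by 0.74 ± 0.04 in KG1A and 0.47 ± 0.03 in U937. KIF23, a subunit of centralspindlin at the cleavage plane, rose by 0.52 ± 0.04 and 0.34 ± 0.03. KIF20A, which carries the passenger complex to the midzone, rose by 0.39 ± 0.04 and 0.16 ± 0.04, although the U937 call ended when scaled by total counts (adjusted p = 0.0706) and CDC23 and BRD8 overlap it on the other strand. KIF11, the motor that pushes the spindle poles apart (ENSG00000138160, chr10:92593286-92655395), lay at 286 and 274 CPM in KG1A PBS and at 320.3 and 344 CPM in KG1A dG. In U937 it went from 236 and 225 CPM to 212 and 204 CPM. The lines thus lay on opposite sides of 0, at 0.25 ± 0.04 (adjusted p = 4.49e-07) and -0.15 ± 0.04 (adjusted p = 0.001). The KIF11 fall lost its call in 7 of 17 alternatives, among them DESeq2 size factors (-0.06, adjusted p = 0.212), no filter (-0.09, adjusted p = 0.0613) and the fit without U937 dG replicate 2 (-0.05, adjusted p = 0.38), and the KIF11 rise lost its own with unfiltered RPKM (adjusted p = 0.0667).

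The centromere genes rose in both lines, each to a different degree. CENPE, the kinesin that moves chromosomes to the spindle equator, lay at 281 and 273 CPM in KG1A PBS and at 411 and 447 CPM in KG1A dG. U937 held 178 and 168 CPM in PBS and 192 and 183 CPM in dG. The rise was 0.63 ± 0.04 in KG1A and 0.12 ± 0.04 in U937 (adjusted p = 0.0122), and the latter ended without U937 PBS replicate 2 (0.06, adjusted p = 0.278) and under scaling by total counts (0.04, adjusted p = 0.366). CENPA, the histone H3 variant that marks centromeres, lay at 57.3 and 53.4 CPM in KG1A PBS and at 68.0 and 62.7 CPM in KG1A dG. The U937 libraries went from 69.0 and 72.7 CPM to 106 and 106 CPM. CENPA rose by 0.25 ± 0.05 and 0.58 ± 0.05, and the KG1A call ended in 2 of the RPKM analyses (adjusted p = 0.0519 and 0.0777). It also shares its locus with SLC35F6 on the same strand, which fell by 0.42 ± 0.07 in KG1A and rose by 0.37 ± 0.05 in U937. CENPF, an outer kinetochore protein, rose by 0.18 ± 0.04 and 0.28 ± 0.03, and its KG1A call ended in all 3 RPKM analyses (adjusted p = 0.174 to 0.254).

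Among the chromosome and spindle proteins, TOP2A and MKI67 carried most of the counts. TOP2A, the topoisomerase that untangles sister chromatids (ENSG00000131747, chr17:40388516-40417950), lay at 1036 and 1017 CPM in KG1A PBS and at 1640.2 and 1653 CPM in KG1A dG. U937 went from 1127 and 1101 CPM to 1470.3 and 1457 CPM, so that the line with the lower PBS level had the higher dG level. Its rises were 0.68 ± 0.03 (adjusted p = 4.33e-21) and 0.39 ± 0.03 (adjusted p = 5.31e-15). MKI67, the Ki-67 antigen that coats mitotic chromosomes and is used as a proliferation marker, went from 1226 and 1140.3 CPM to 1616 and 1642 CPM in KG1A. Its U937 level went from 1280.03 and 1204 CPM to 1565 and 1574 CPM, and the changes were 0.46 ± 0.03 and 0.34 ± 0.03. NUSAP1, a microtubule-bundling protein, lay at 262 and 264 CPM in KG1A PBS and at 429 and 433 CPM in KG1A dG, a rise of 0.71 ± 0.03, and rose by 0.39 ± 0.03 in U937.

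HMMR stood apart from the rest of this group. It encodes a spindle-binding protein also known as a hyaluronan receptor (ENSG00000072571, chr5:163460203-163491945). In KG1A it lay at 50.7 and 49.5 CPM in PBS and at 64.9 and 71.5 CPM in dG. In U937 it lay at 147 and 149 CPM in PBS and at 110 and 108 CPM in dG. Both pairs of groups were free of overlap and pointed opposite ways, at 0.44 ± 0.05 (adjusted p = 9.65e-10) and -0.44 ± 0.04 (adjusted p = 1.3e-11), and both calls held in all 17 alternatives.

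The other spindle proteins rose in both lines, with 1 exception. TPX2, which activates AURKA on the spindle, rose by 0.45 ± 0.03 in KG1A and 0.29 ± 0.03 in U937. PRC1, which crosslinks the midzone microtubules, rose by 0.55 ± 0.04 and 0.54 ± 0.03. ASPM, a spindle pole protein, rose by 0.51 ± 0.04 and 0.45 ± 0.04. DLGAP5, which stabilizes kinetochore fibres, rose by 0.25 ± 0.03 and 0.19 ± 0.03. BIRC5, the survivin subunit of the passenger complex, lay at 141 and 145 CPM in KG1A PBS and at 158 and 146 CPM in KG1A dG, and at 44.5 and 44.1 CPM in U937 PBS and 52.0 and 52.9 CPM in U937 dG. It rose by 0.24 ± 0.05 in U937 (adjusted p = 0.000102) and did not pass in KG1A (0.09 ± 0.04, adjusted p = 0.0716), where leaving out KG1A dG replicate 2 made it a call (0.14, adjusted p = 0.0118).

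The genes that end mitosis went both ways. CDC20, the activator that turns the anaphase-promoting complex on at anaphase (ENSG00000117399, chr1:43358955-43363203), lay at 95.5 and 94.6 CPM in KG1A PBS and at 82.1 and 77.8 CPM in KG1A dG. From PBS to dG, U937 went from 113 and 113 CPM to 98.2 and 97.4 CPM. The dG libraries were lower in both lines without overlap, by -0.25 ± 0.04 (adjusted p = 5.33e-06) and -0.21 ± 0.04 (adjusted p = 3.44e-05), and both calls held in all 17 alternatives. UBE2C, the ubiquitin-conjugating enzyme of the same complex, went the other way. It lay at 23.2 and 23.6 CPM in KG1A PBS and at 38.1 and 36.3 CPM in KG1A dG, and at 28.2 and 29.5 CPM in U937 PBS and 44.4 and 45.9 CPM in U937 dG, rises of 0.67 ± 0.06 and 0.65 ± 0.06. PTTG1, which encodes securin, the inhibitor that is destroyed to free separase (ENSG00000164611, chr5:160421822-160428744), lay at 29.04 and 29.6 CPM in KG1A PBS and at 38.6 and 37.5 CPM in KG1A dG. The level in U937 went from 69.9 and 70.4 CPM to 130.2 and 124 CPM. PTTG1 rose by 0.38 ± 0.06 and 0.86 ± 0.04. The near-identical copy PTTG2 was counted with 120 to 541 reads per library and rose by 0.55 ± 0.12 and 0.77 ± 0.09, and reads of the pair may have been divided between them.

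FOXM1, the forkhead factor that activates many of the other members in G2, rose in KG1A and not in U937. It lay at 168 and 169 CPM in KG1A PBS and at 222 and 225 CPM in KG1A dG. In U937 it lay at 125 and 123 CPM in PBS and at 128 and 128 CPM in dG. The U937 dG libraries were above the PBS libraries without overlap, but by only 0.04 ± 0.04 (adjusted p = 0.327, 95% interval -0.03 to 0.12). The KG1A rise was 0.40 ± 0.03 (adjusted p = 2.21e-12). The U937 change of FOXM1 was called with DESeq2 size factors (0.13, adjusted p = 0.0027) and in 5 other alternatives, and ITFG2 and RHNO1 overlap the gene.

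**Figure D3:**
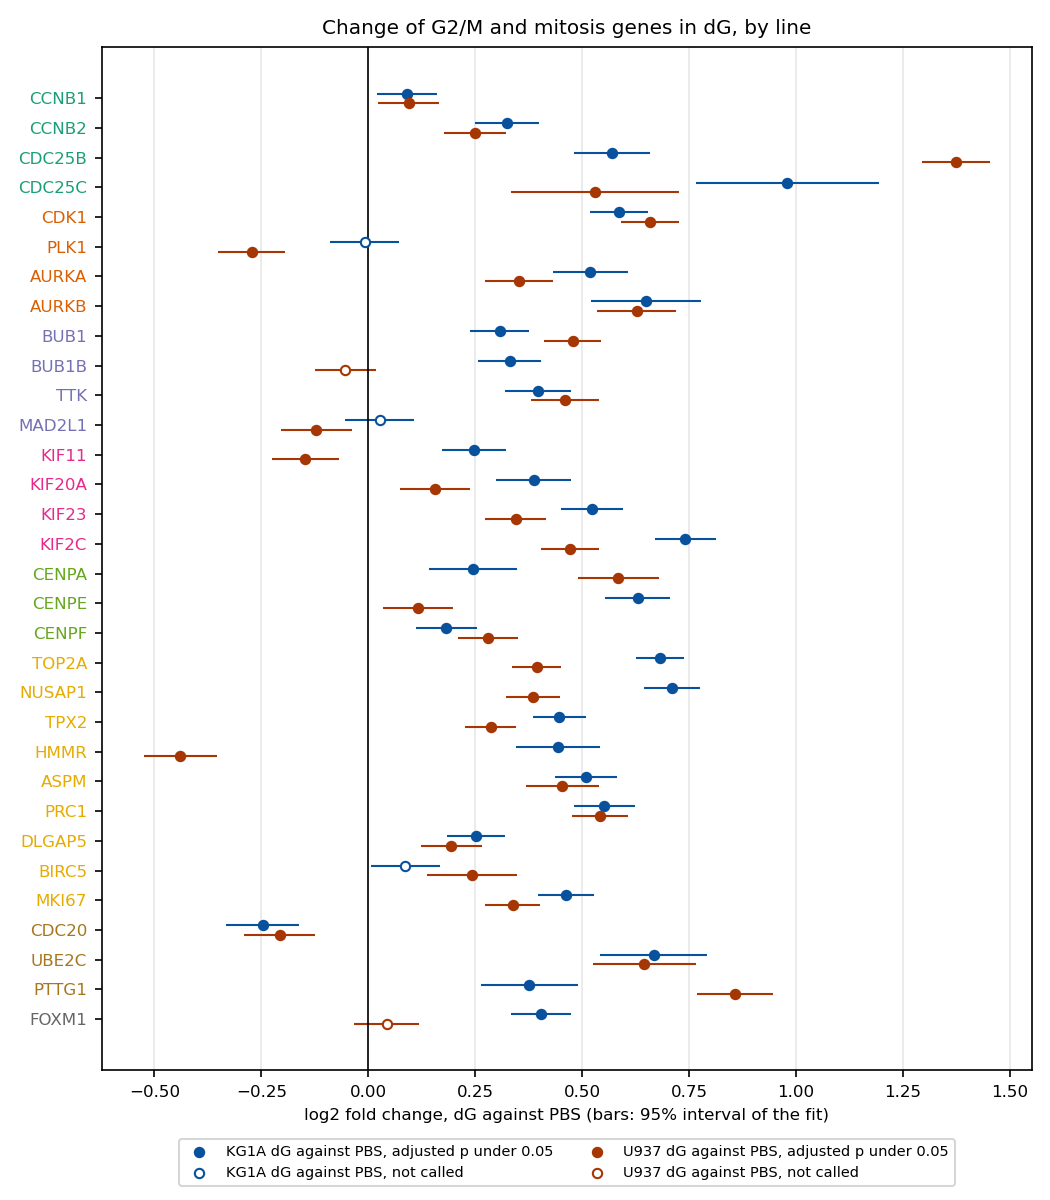
Change of each gene in dG against PBS (log2 fold change, horizontal axis) in KG1A (blue) and U937 (red-brown), with bars for the 95% interval of the fit; filled points passed an adjusted p of 0.05 and open points did not. Gene names are coloured by role. HMMR lies at 0.44 in KG1A and -0.44 in U937, CDC25B at 0.57 and 1.37, and CDC20 is under 0 in both.

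The second question was where the lines differed in their response. The test of the difference, the U937 effect minus the KG1A effect, called 4 members higher and 16 lower, against 44.1% of all genes called, 17.6% higher and 26.4% lower. The median difference of the members was -0.10 and that of all genes also -0.10. This median depended on the scaling: it was 0.00 for the members and -0.00 for all genes with DESeq2 size factors, and 0.03 and 0.05 with no filter. The split of 4 and 16 became 8 and 10 with DESeq2 size factors and 8 and 8 with no filter, and the cause of this change was not tested. Without U937 dG replicate 1 the split was 8 and 8, and without U937 dG replicate 2 it was 10 and 7. Over all genes, the share of calls that were higher was 40.0%, and 50.8% with DESeq2 size factors. Called differences that held in all 16 alternatives numbered 10 of the 20. CDC25B, BUB1, CENPA and PTTG1 rose more in U937, and BUB1B, CENPE, TOP2A, NUSAP1, HMMR and FOXM1 rose more in KG1A or, for HMMR, fell in U937. The alternatives did not address reads shared with other genes. SLC35F6, which overlaps CENPA, differed by 0.79 ± 0.08, and RHNO1, which overlaps FOXM1, by -0.55 ± 0.07. For ITFG2, which also overlaps FOXM1, and for PTTG2 the difference was not called (0.02 ± 0.11 and 0.22 ± 0.15).

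HMMR differed by -0.88 ± 0.06 (adjusted p = 3.79e-14), with a range of -0.96 to -0.72 over the alternatives. CDC25B differed by 0.80 ± 0.06 (adjusted p = 3.82e-14), CENPE by -0.51 ± 0.05 (adjusted p = 6e-10) and PTTG1 by 0.48 ± 0.07 (adjusted p = 5.76e-07). These 4 had the widest gaps among the 10. BUB1B and FOXM1 differed by -0.38 ± 0.05 and -0.36 ± 0.05, each a rise in KG1A beside a change in U937 that was not called. CENPA and BUB1 differed by 0.34 ± 0.07 and 0.17 ± 0.05, NUSAP1 by -0.32 ± 0.04 and TOP2A by -0.29 ± 0.04.

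For 12 members the difference was not called. The effects on CCNB1 differed by 0.00 (95% interval -0.10 to 0.10) and on AURKB by -0.02 (-0.18 to 0.14), and neither was called in any of the 16 alternatives. PRC1 differed by -0.01 (-0.11 to 0.09), but the difference was called with the other sign with RPKM at a pseudocount of 1 (0.12, adjusted p = 0.0447) and without U937 dG replicate 2 (0.14, adjusted p = 0.0459). CDC20 differed by 0.04 (-0.08 to 0.16), and this was called as a smaller fall in U937 in the 3 RPKM analyses (0.16 to 0.17, adjusted p = 0.0292 to 0.0452) and without U937 dG replicate 2 (0.18, adjusted p = 0.0446). TTK, CENPF and BIRC5 were also called higher in part of the alternatives, among them the fits without U937 dG replicate 2 (0.21, 0.24 and 0.27). CDK1 differed by 0.07 ± 0.05 (adjusted p = 0.228), which became 0.17 with DESeq2 size factors (adjusted p = 0.00306). Across the 32 members the effects in the lines correlated at Pearson r = 0.534 and Spearman rho = 0.581, and 28 had the same sign, beside r = 0.249 and rho = 0.363 over all genes. These are correlations across genes that share libraries and depth, given as a description.

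**Figure D4:**
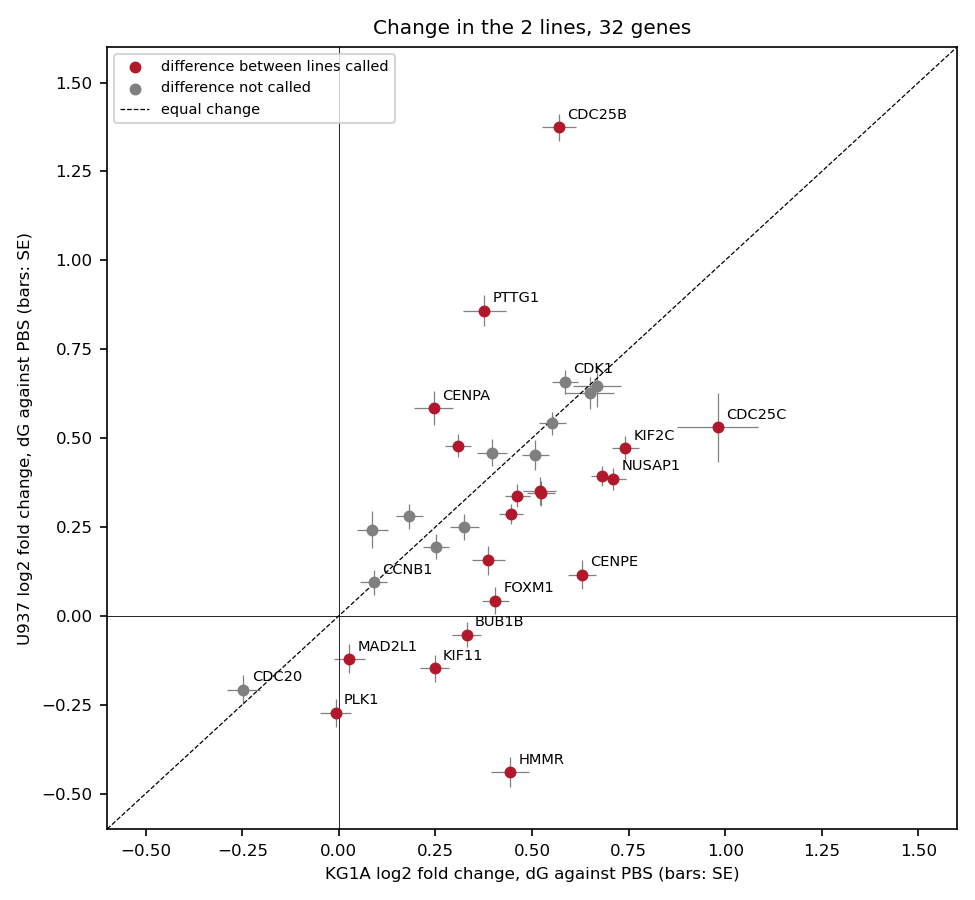
Change in dG in U937 (vertical axis) against that in KG1A (horizontal axis), both as log2 fold change with standard error bars, for the 32 genes; the dashed line marks equal change. Red points passed the test of the difference between lines (20 genes) and grey points did not; CDC25B and PTTG1 lie above the line and HMMR furthest below it.

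The levels of most members differed between the lines under vehicle too, as did those of most genes tested. In PBS 23 members were higher in U937, 8 were lower, and MAD2L1 was not called, where 82.3% of all genes were called, 41.4% higher and 40.8% lower. The PBS libraries of the lines did not overlap for 30 members (22 higher and 8 lower in U937), beside 90.4% of all genes (45.5% higher, 44.9% lower). A called difference of at least 2-fold was found for 7 members, beside 43.9% of all genes. The median log2 difference was 0.42 for the members and 0.01 for all genes. AURKB was 1.83 ± 0.06 higher in U937, at 73.4 and 72.0 CPM against 21.3 and 19.7 CPM. HMMR was 1.56 ± 0.05 higher, TPX2 1.39 ± 0.03, PRC1 1.26 ± 0.03 and PTTG1 1.26 ± 0.05. ASPM was higher in KG1A, at 460.2 and 434 CPM against 112 and 110.03 CPM in U937, a log2 difference of -2.01 ± 0.04. BIRC5 was lower in U937 as well, by -1.69 ± 0.05. The members that were lower in U937 otherwise were CENPE (-0.68), DLGAP5 (-0.49), FOXM1 (-0.44), KIF11 (-0.28), TTK (-0.25) and CCNB1 (-0.13). The PBS calls of CCNB1, CDK1, TOP2A and MKI67 ended in some of the alternatives.

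Per kilobase of exon, the order of the levels also differed. In KG1A PBS the authors' RPKM (reads per kilobase of exon, scaled to library size) was 162 ± 1.59 for TOP2A (mean ± SD, n = 2), followed by TPX2 at 97.4 ± 0.71, MKI67 at 93.9 ± 4.52, NUSAP1 at 93.1 ± 0.75 and CCNB1 at 89.7 ± 3.43. The last 4 lay close together, and MKI67 and NUSAP1 differed by less than the spread of MKI67. In U937 PBS, TPX2 led at 247 ± 1.90, before NUSAP1 at 176 ± 0.86 and TOP2A at 170.4 ± 4.55. CDC25C was lowest in both lines, at 2.62 ± 0.37 and 3.91 ± 0.41 RPKM. In KG1A dG, TOP2A stood at 248 and NUSAP1 at 145 RPKM, and in U937 dG, TPX2 at 314 and NUSAP1 at 239.6 RPKM.

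To see how far the rest of the mitotic machinery went with the members, 115 other genes in 9 lists were read in the same fit. In KG1A 73 of the 115 rose and 17 fell, with a median of 0.26, where 29.6% of all genes rose and 19.6% fell. In U937 55 rose and 40 fell, with a median of 0.11, where 32.4% of all genes rose and 31.5% fell. The falls of the 115 thus lay near the background in both lines. The same shares over all genes apply to each list below. Of 8 cytokinesis genes 7 rose and 0 fell in KG1A (median 0.57), and 6 rose and 0 fell in U937 (median 0.41). RHOA, the GTPase of the contractile ring, which was picked after its values were seen, was not called in either line (-0.06 ± 0.03 and 0.02 ± 0.03). ANLN, the anillin of the contractile ring, rose by 0.96 ± 0.04 in KG1A and 0.95 ± 0.04 in U937. SEPTIN9, a filament protein of the same site, went from 44.7 and 47.1 CPM to 98.1 and 93.7 CPM in KG1A and was not called in U937 (-0.05 ± 0.04). CIT, the citron kinase, rose by 0.91 ± 0.04 in U937, and in KG1A it went from 99.4 and 95.3 CPM to 170.4 and 175.0 CPM. The passenger complex list held INCENP, CDCA8, SGO1 and SGO2, without the members AURKB and BIRC5, of which BIRC5 was not called in KG1A. All 4 listed genes rose in both lines. SGO1, a protector of centromeric cohesion rather than a subunit, rose by 0.38 ± 0.05 and 0.33 ± 0.05. SGO2 rose by 0.35 ± 0.04 in KG1A and the scaffold INCENP by 0.38 ± 0.04 in U937. Of 16 further kinesins and spindle factors 14 rose and 0 fell in KG1A (median 0.41), and 12 rose and 3 fell in U937 (median 0.35). CKAP2L, a spindle pole factor, rose by 0.66 ± 0.04 and 0.69 ± 0.04, its relative CKAP2 by 0.64 ± 0.03 in KG1A, and the kinesin gene KIF18B by 0.70 ± 0.05 in U937.

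Kinetochore and condensin genes parted between the lines. Of 25 kinetochore genes 19 rose and 2 fell in KG1A (median 0.33), and 12 rose and 12 fell in U937 (median -0.06). The test of the difference called 18 of them lower and 1 higher, and 12 to 19 lower in the alternatives, where 26.4% of all genes were called lower and 17.6% higher. The median difference of the kinetochore genes was -0.37, and that of all genes -0.10. Not every gene parted: HJURP, the chaperone that deposits CENPA, rose by 0.84 ± 0.04 in KG1A and 0.79 ± 0.04 in U937 (difference -0.05 ± 0.06, adjusted p = 0.504). KNL1, the checkpoint platform, rose by 0.60 ± 0.04 in KG1A and by 0.27 ± 0.04 in U937. ZW10, a checkpoint subunit, fell in both lines, by 0.35 ± 0.05 on the log2 scale in KG1A, and in U937 from 54.0 and 51.6 CPM to 26.0 and 29.3 CPM, a change of -0.94 ± 0.06, and CENPH of the inner kinetochore changed by -0.90 ± 0.06. Of 8 condensin genes, whose proteins fold chromosomes for division, 6 rose and 0 fell in KG1A (median 0.29), and 1 rose and 4 fell in U937 (median -0.09). The difference was called lower for 6 of the 8 and higher for 0, and lower for 6 or 7 in the alternatives, with a median difference of -0.47. The lean was not confined to these lists. Over all 115 genes the difference was called lower for 59 and higher for 13, with a median of -0.17. Of 13 MuvB and DREAM genes 7 were called lower and 1 higher. In KG1A NCAPG rose by 0.54 ± 0.04 and NCAPD2 by 0.43 ± 0.03. SMC2, the shared ATPase subunit, fell from 268 and 253 CPM to 149.9 and 149.9 CPM in U937, by 0.80 ± 0.04 on the log2 scale, and NCAPH fell by 0.62 ± 0.04.

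**Figure D5:**
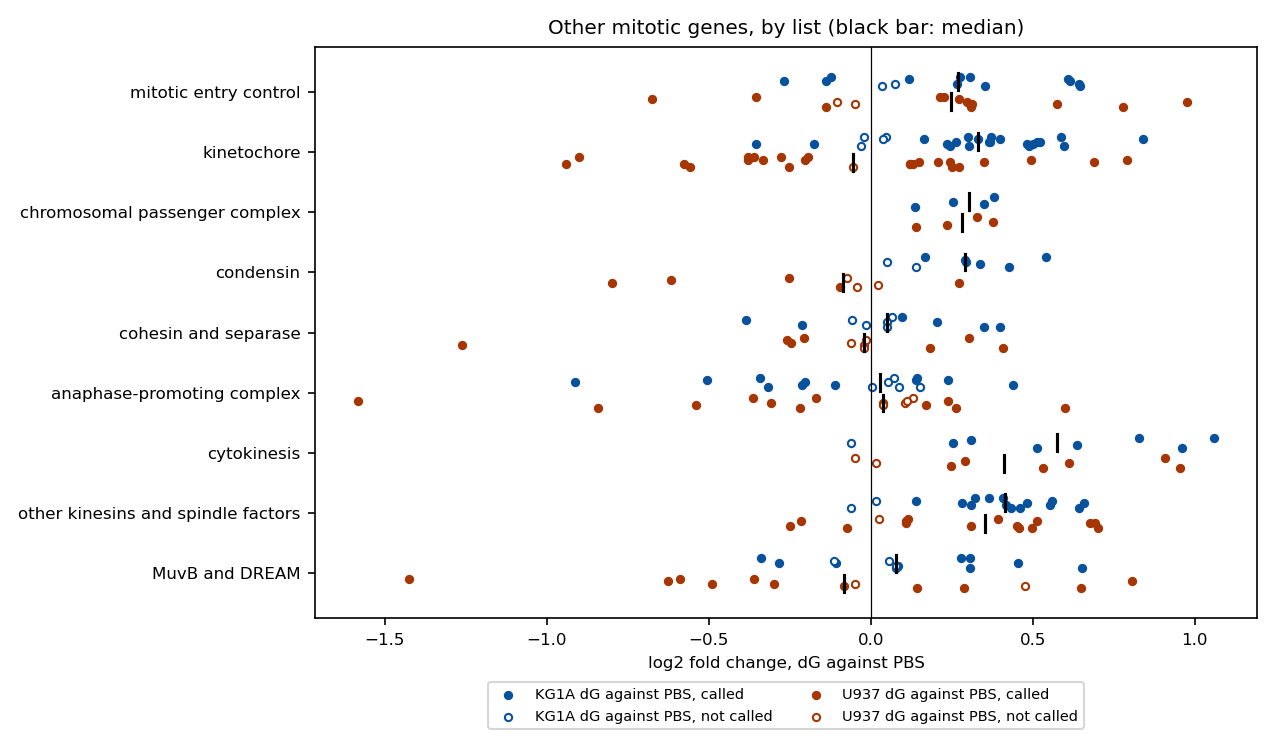
Change in dG against PBS (log2 fold change, horizontal axis) of the 115 other mitotic genes by list, KG1A in blue and U937 in red-brown; filled points passed an adjusted p of 0.05, open points did not, and black bars are medians. The kinetochore and condensin medians lie at 0.33 and 0.29 in KG1A and at -0.06 and -0.09 in U937, while cytokinesis lies at 0.57 and 0.41.

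Over all genes 29.6% rose and 19.6% fell in KG1A, and 32.4% rose and 31.5% fell in U937. The cohesin and separase counts lay close to these shares. Falls in the anaphase-promoting list and rises in the mitotic entry list were more frequent than these shares in both lines. Of 16 genes of the anaphase-promoting complex and its regulators 4 rose and 7 fell in KG1A, and again 4 rose and 7 fell in U937. The small subunit gene ANAPC15 fell by 0.51 ± 0.07 and 1.58 ± 0.11 on the log2 scale, CDC26 by 0.91 ± 0.19 in KG1A and the scaffold ANAPC1 by 0.84 ± 0.05 in U937. Of 11 cohesin and separase genes 4 rose and 2 fell in KG1A, and 3 rose and 4 fell in U937. CDCA5, the sororin that locks cohesin, rose by 0.40 ± 0.04 and 0.41 ± 0.04, and STAG1 fell by 1.26 ± 0.05 in U937, from 78.7 and 78.5 CPM to 33.9 and 31.4 CPM. STAG2, the other cohesin subunit of its kind, fell by 0.39 ± 0.07 in KG1A, where it lay at 15.8 to 22.2 CPM in all 4 libraries against 576 to 594 CPM in U937. Of 14 genes that control mitotic entry 9 rose and 3 fell in each line. MASTL, the greatwall kinase that restrains the opposing phosphatase, rose by 0.65 ± 0.05 and 0.78 ± 0.05. GADD45A, a stress gene that holds CDK1 back, rose by 0.64 ± 0.08 in KG1A, and in U937 it went from 9.01 and 9.61 CPM to 13.8 and 13.9 CPM. CKS2, a CDK1-binding subunit, rose by 0.98 ± 0.05 in U937, but in KG1A it went from 74.4 and 82.5 CPM to 73.2 and 69.8 CPM.

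The genes of the complex that binds the CHR element were the last list. Of 13 MuvB and DREAM genes 6 rose and 3 fell in KG1A, and 4 rose and 7 fell in U937. LIN54, the subunit that contacts the CHR, rose by 0.65 ± 0.05 in KG1A and by 0.65 ± 0.05 in U937. LIN9 rose by 0.46 ± 0.06 in KG1A and was not called in U937 (-0.05 ± 0.05). In U937 the core subunit gene LIN52 rose by 0.81 ± 0.07, and E2F5, the repressor E2F, fell from 11.6 and 11.3 CPM to 4.44 and 4.08 CPM, by 1.42 ± 0.11 on the log2 scale. MYBL2, which encodes B-MYB and was picked after its values were seen, lay at 214 and 214 CPM in KG1A PBS and at 262 and 257 CPM in KG1A dG. The U937 libraries went the other way, from 298 and 294 CPM to 196 and 197 CPM. The changes were 0.28 ± 0.03 and -0.59 ± 0.03, and the test of the difference gave -0.87 ± 0.05 (adjusted p = 1.24e-17). For single genes of these lists, the alternatives were run only on those picked by rule in each list and line. Each of those changes kept its call in all 17 alternatives of its line. They were not run for MYBL2, RHOA, the KG1A value of ZW10, or the U937 values of HJURP, KNL1, LIN54, LIN9 and SEPTIN9.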

How the data were processed

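The deposited count table holds whole-number read counts per gene for 8 libraries, and the authors' RPKM table gives the same libraries per kilobase of exon and library size, scaled by edgeR's TMM factors as recomputed from the counts. Per the submitters' processing notes, the build was hg38 (GRCh38), and the notes list HTSeq 0.11.2, TopHat2 and also bcl2fastq 2.18.0.12, without their roles. The annotation release, strand setting and treatment of multiply matching reads are not given in the sources used here, so 4 members with a substantial overlapping gene (CDC25C, KIF20A, CENPA and FOXM1) and PTTG1 are uncertain. Groups came from the sample titles. Counts were tested with edgeR 4.0.16 (R 4.3.3; quasi-likelihood F test, two-sided, filterByExpr, TMM) in 1 model of all 8 libraries, with Benjamini-Hochberg adjustment over 18314 genes and a threshold of 0.05. There were 4 residual and 31.0 prior degrees of freedom, and the common biological coefficient of variation was 2.51%. CPM are counts scaled to a common library size with the TMM factors. Library totals of 21053724 to 31135338 counts make 1 count worth about 0.0314 to 0.0485 CPM.

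Members, lists and tests were chosen with earlier results of these data known. Named genes were all 32 members and, per other mitotic list and line, the 2 called genes with the largest absolute change; promoter sites of the 4 members with a motif and the largest difference between lines were printed, and further sites were added after values were seen. Alternatives were DESeq2 1.42.0 (size factors, Wald test), library size alone, no filter, a replicate block, limma 3.58.1 on log2(RPKM + 0.1) and log2(RPKM + 1), each library left out, and each line alone. Promoter sequences are RefSeq's (GRCh38.p14).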

Additional observations from a re-analysis of the deposited data

Results flagged for a closer look

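In 20 of the 32 genes the response to dG differed between the lines by the interaction test (edgeR, adjusted p under 0.05 over all genes), beside 44.1% of all genes tested. The values are log2 effects in U937 minus those in KG1A. Higher in U937 were CDC25B (0.80), PTTG1 (0.48), CENPA (0.34) and BUB1 (0.17). Lower in U937 were HMMR (-0.88), CENPE (-0.51), CDC25C (-0.45), KIF11 (-0.39), BUB1B (-0.38) and FOXM1 (-0.36). The CDC25C call held in 6 of 16 alternatives, and its value was -0.29 without U937 dG replicate 1 (adjusted p = 0.173). The same direction held for NUSAP1 (-0.32), TOP2A (-0.29), KIF2C (-0.27), PLK1 (-0.26) and KIF20A (-0.23). Without U937 dG replicate 2 the calls of KIF2C (-0.13, adjusted p = 0.0897), PLK1 (-0.12, adjusted p = 0.153) and KIF20A (-0.06, adjusted p = 0.52) ended. PLK1 and KIF20A also lost theirs without U937 dG replicate 1 (-0.15 and -0.14). Smaller gaps were those of KIF23 (-0.18), AURKA (-0.17), TPX2 (-0.16), MAD2L1 (-0.15) and MKI67 (-0.12). None of these 5 calls held without U937 dG replicate 1 or 2. The median of all genes in this contrast was -0.10 under TMM scaling.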

How the results depend on the processing

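The members' counts of rises and falls in KG1A stayed within 1.5 times of the reported ones in all 17 alternatives, and 25 of 29 calls held in every one of them. In U937, where 25 of 30 calls held throughout, the count of members called lower was 5 and became 3 with DESeq2 size factors, no filter, the DESeq2 Wald test and each RPKM analysis (3 to 6 when 1 library was left out, with 3 without U937 dG replicate 2). For the difference between lines the 4 higher and 16 lower members became 8 and 10 with DESeq2 size factors, 8 and 8 with no filter, 8 and 9 with the DESeq2 Wald test (all genes lower 3119 instead of 4841), 7 and 7 with RPKM and a pseudocount of 0.1, 9 and 7 with a pseudocount of 1 (all genes higher 5099 instead of 3230), and 7 and 6 with unfiltered RPKM. With 1 library left out they ranged from 4 to 10 higher and 7 to 15 lower, the ends without U937 dG replicate 2 among them. The MKI67 difference, -0.12 (-0.18 to 0.0046 with 1 library left out), changed sign to 0.0032 with no filter, 0.0039 with RPKM and a pseudocount of 0.1, filtered or not, 0.0040 with a pseudocount of 1, and 0.0022 and 0.0046 without U937 dG replicate 2 or 1. The AURKA difference, -0.17, was 0.018 without U937 dG replicate 2 (-0.20 to 0.018 with 1 library left out), and the PRC1 difference, -0.01, was 0.12 with RPKM at a pseudocount of 1 and 0.14 without U937 dG replicate 2 (-0.024 to 0.14). Of all genes called, the share called higher in KG1A was 60.2%, and 50.8% with library size alone, 50.9% with no filter, 49.4% to 50.7% with RPKM, and 50.7% without either U937 dG library; in U937 it was 50.7%, 57.7% with DESeq2 size factors and 44.9% with library size alone. For the difference it was 40.0%, and 50.8% to 56.1% with DESeq2 size factors, no filter, RPKM or the Wald test. The cause of these changes was not tested. The 115 other mitotic genes had 62 to 73 calls higher and 13 to 22 lower in KG1A over the alternatives, and 42 to 62 and 31 to 50 in U937.

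The sample titles do not say whether the replicate numbers pair the samples. The deviations of same-numbered libraries correlated at -0.05 in KG1A and 0.01 in U937, so no shift shared by number was seen. This cannot settle how the libraries were handled. With the number as a replicate block, KG1A had 27 members higher and 1 lower (CCNB1, 0.09, adjusted p = 0.0574), U937 25 and 5, the difference 4 and 15 (MAD2L1, adjusted p = 0.0611), and U937 against KG1A in PBS 22 and 8 (MKI67, 0.07, adjusted p = 0.123). With 2 libraries per group, depth limits CDC25C most, which averaged 338 counts per library and had 163 and 252 in KG1A PBS. Its standard errors were 0.10 to 0.11 within a line.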
